A study of Drosophila melanogaster with 3 samples.

Results

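The genes described here, apart from LSm1, encode core parts of the spliceosome, the RNA-protein machine that cuts introns out of pre-mRNA. They were chosen by symbol from the protein-coding genes of the Ensembl annotation of BDGP6.54: genes whose symbol begins with LSm, snRNP, Sf3a, Sf3b or U2af, genes named Prp followed by a number alone, and SmB, SmD1, SmD2, SmD3, SmE, SmF and SmG. The rule found 32 genes of the 13945 protein-coding genes on the 6 chromosome arms 2L, 2R, 3L, 3R, 4 and X. No gene carries the symbol SmG in that annotation, so the Sm ring is represented by 6 genes. The rule itself uses no measured value, but the members were chosen with earlier results of these data known. Chromatin immunoprecipitation and sequencing (ChIP-seq) mapped the sites of CG31627 in whole animals of Drosophila melanogaster, collected as white prepupae at the onset of metamorphosis. All 3 libraries are biological replicates of 1 group, mixed males and females of the strain CG31627-GFP, a single transgenic line that stably expresses CG31627 with GFP fused to its C-terminus; the age is given as unknown. Chromatin was sheared by sonication to a size range of 200 to 800 bp and precipitated with an antibody to GFP, although another label names the antibody after CG31627. There is no second condition, control data were not analysed here, and whole animals were used, so weak binding in all cells and strong binding in a few cannot be told apart.

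The spliceosome is assembled from small nuclear ribonucleoproteins (snRNPs), each made of an RNA, a shared ring of Sm or LSm proteins and proteins of its own. The U1 snRNP marks the 5′ splice site, U2AF and the U2 snRNP mark the 3′ end of the intron and the branch point, and the U4/U6 and U5 snRNPs then join and are rearranged into the catalytic form. Its genes are expressed in nearly all cells, and many housekeeping promoters of Drosophila carry the DNA replication-related element (DRE) or the Ohler motifs in place of a TATA box. A gene is called bound here where the summit of an IDR-thresholded peak lay within 500 bp of one of its annotated start sites. These peaks, 7717 on the 6 arms, are the pooled peaks that the authors kept by their irreproducible discovery rate (IDR), a measure of how well peaks keep their rank between replicates. Every bound gene described below had the same rank by signal in this list as in the list of all pooled peaks. A bound gene need not have a summit in every library. All coordinates are on dm6.

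The strongest bound gene of each functional group that lies on 2L, 3L, 3R or X, and each bound gene with a DRE at its summit, is shown by the bases from 50 bp before to 50 bp after the summit, read 5′ to 3′ on the strand of the gene. Capitals mark a match to the DRE (TATCGATA), the core of the insulator protein BEAF-32 (CGATA) or the TATA box (TATAAA), or to the reverse complement of one of these. The windows are those of Sf3b6 (chr3L:6193277-6193377, minus strand), Prp31 (chr3L:15158844-15158944, plus strand), snRNP-U1-C (chr3R:18983783-18983883, minus strand), LSm7 (chr2L:16743097-16743197, minus strand), SmD2 (chr3R:6345982-6346082, minus strand), Prp39 (chr3R:28811888-28811988, plus strand) and Sf3b2 (chr2L:3029180-3029280, minus strand).
Sf3b6: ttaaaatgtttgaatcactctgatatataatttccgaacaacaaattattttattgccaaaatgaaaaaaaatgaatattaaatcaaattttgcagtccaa
Prp31: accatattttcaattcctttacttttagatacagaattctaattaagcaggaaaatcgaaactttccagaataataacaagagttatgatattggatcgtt
snRNP-U1-C: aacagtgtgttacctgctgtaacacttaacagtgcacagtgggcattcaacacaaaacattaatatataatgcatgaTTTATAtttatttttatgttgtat
LSm7: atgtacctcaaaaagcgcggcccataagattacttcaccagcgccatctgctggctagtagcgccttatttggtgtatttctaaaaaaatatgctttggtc
SmD2: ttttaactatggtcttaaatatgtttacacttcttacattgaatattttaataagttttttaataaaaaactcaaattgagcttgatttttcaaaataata
Prp39: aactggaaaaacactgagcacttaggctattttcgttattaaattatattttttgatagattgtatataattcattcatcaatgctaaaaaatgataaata
Sf3b2: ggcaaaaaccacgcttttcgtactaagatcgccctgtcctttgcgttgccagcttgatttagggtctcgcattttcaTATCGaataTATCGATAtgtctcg
Of these windows, those of SmD2 (82.2% A or T), Sf3b6 (78.2%) and Prp39 (77.2%) are the richest in A and T, and those of LSm7 (56.4%) and Sf3b2 (55.4%) the poorest. Over all 14 bound genes 66.1% of bases within 50 bp of the summit were A or T, against 64.6% over all 3681 bound protein-coding genes.

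Of the 32 spliceosome genes, 14 (43.8%) were bound, where 26.4% of all protein-coding genes were. With 1 group of samples and a list chosen by symbol, this difference of 17.4 percentage points from the other protein-coding genes is a description with no test. Leaving out a library, which kept the IDR-thresholded peaks that were among the 7717 strongest of both others, left 8 genes bound without replicate 1 (25%, against 21.4% of protein-coding genes), 11 without replicate 2 (34.4% against 22.8%) and 8 without replicate 3 (25% against 20.9%). The difference from other protein-coding genes was then 3.64, 11.6 and 4.15 percentage points. The share was near the background in both settings that required replicate 2. The IDR-thresholded list itself still came from all 3 libraries, so the part of each replicate in the difference was not tested. The bound genes were spread over the arms, with 4 of 9 on 2L, 3 of 6 on 2R, 3 of 7 on 3L, 3 of 7 on 3R and 1 of 3 on X. The share of all protein-coding genes bound on these arms was 25.3%, 24.8%, 26.6%, 28.4% and 26.4%, in the same order. All 32 genes had only 31-base words around their start sites that occur once in the genome, so a missing peak does not stand at a repeated promoter.

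**Figure D1:**
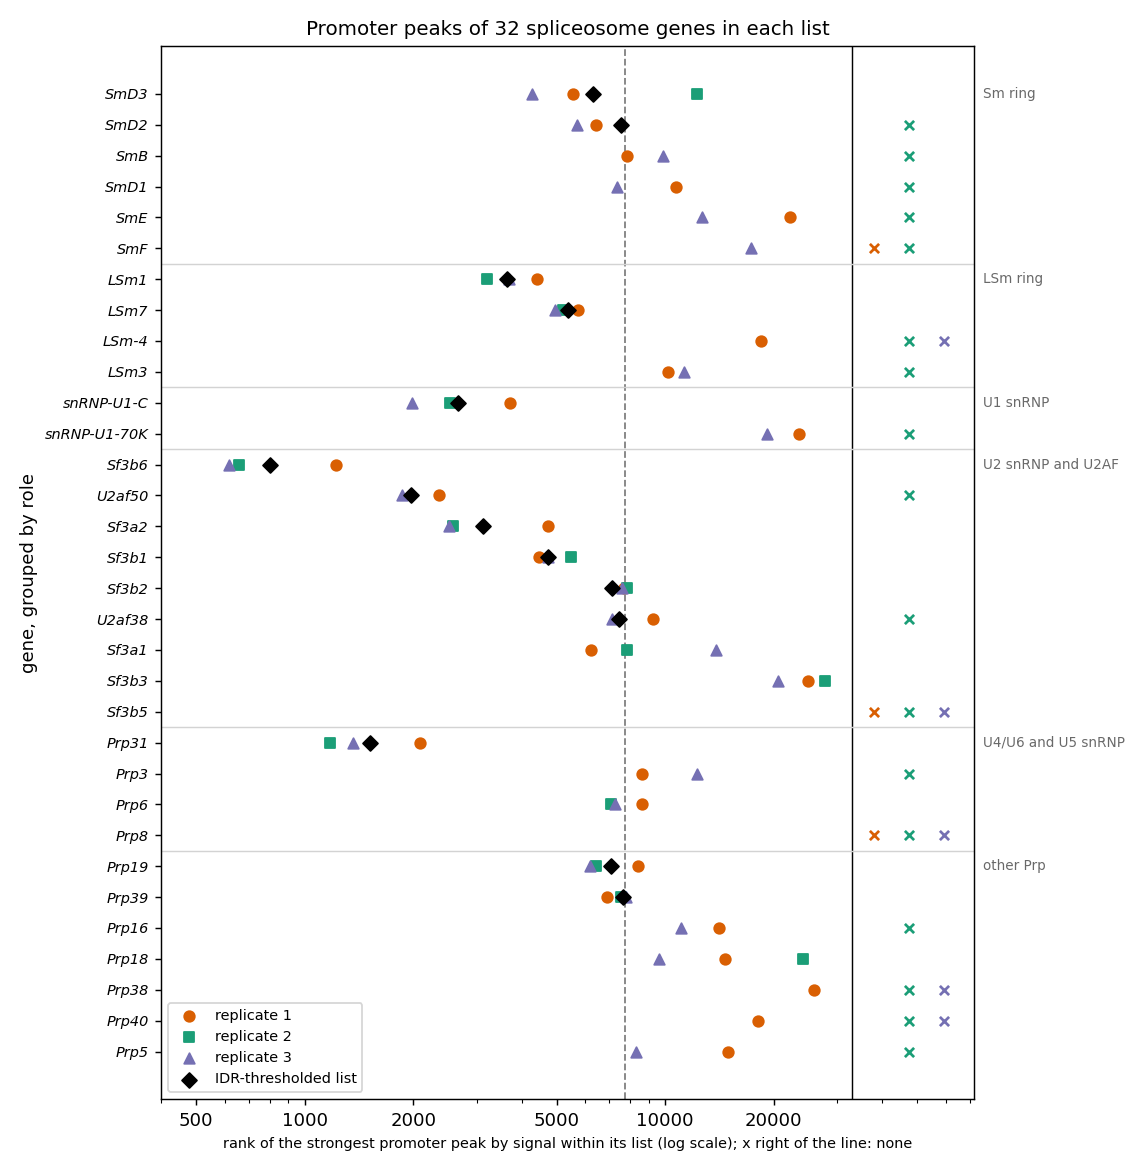
Rank by signal of the strongest peak within 500 bp of a start site of each of the 32 genes, on a log axis, in the IDR-thresholded list (diamonds) and in the list of each replicate (circles, squares and triangles). Genes are grouped by role; crosses right of the solid line mark a library list with no such summit, and the dashed line stands at rank 7717. The strongest gene is Sf3b6, at rank 802 in the IDR-thresholded list, and most crosses belong to replicate 2.

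The libraries gave different counts. Among the 7717 strongest peaks of each library, a number equal to that of the IDR-thresholded peaks, replicate 1 had a promoter summit at 13 of the 32 genes (40.6%, against 26.4% of protein-coding genes). Replicate 2 had one at 10 genes (31.2% against 24.2%) and replicate 3 at 15 (46.9% against 27.5%). The mean was 12.7 ± 2.52 genes (SD, n = 3 libraries), or 39.6% ± 7.86 against 26.1% ± 1.69 of protein-coding genes. The difference from other protein-coding genes was positive in each library, at 14.2, 7.06 and 19.4 percentage points in replicates 1, 2 and 3 (mean 13.6, SD 6.19). The 7 genes LSm1, LSm7, snRNP-U1-C, Sf3b6, Sf3a2, Sf3b1 and Prp31 were bound in the IDR-thresholded list and among the strongest of all 3 libraries, which makes 21.9%, near the 20.5% of all protein-coding genes. A further 7 of the 32 were among the strongest of exactly 2 libraries, against 5.39% of protein-coding genes. The margin over the background therefore lay in genes that were not among the strongest in every library.

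**Figure D2:**
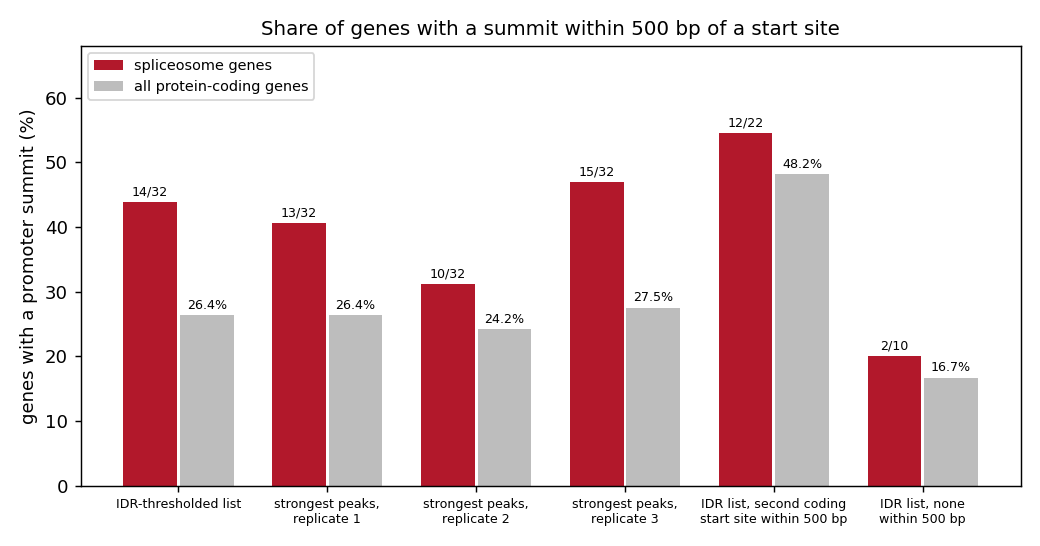
Percent of the 32 spliceosome genes (red, with counts) and of all protein-coding genes (grey) with a summit within 500 bp of a start site, in the IDR-thresholded list, among the 7717 strongest peaks of each replicate, and in the IDR-thresholded list split by whether another coding start site lies within 500 bp. Red bars stand above grey in all 6 pairs, by the most in replicate 3 and by little where the genes are split.

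The Sm ring, which coats the U1, U2, U4 and U5 RNAs, had 2 of its 6 genes bound, both weakly. Among all protein-coding genes the share was 26.4%, and among those with another coding start site within 500 bp it was 48.2%. All of these Sm genes but SmF had such a neighbour. The same shares are the background for each small group below. The SmD3 peak (chr2R:12168507-12168910) ranked 6316 of 7717, with its summit 22 bp upstream of the start site. In the library lists it ranked 5541 in replicate 1, 12255 in replicate 2, where the nearest summit lay 426 bp from the start site, and 4274 in replicate 3. SmD2 (chr3R:6345830-6346233) ranked 7522, with ranks of 6448 and 5696 in replicates 1 and 3 and no promoter summit in replicate 2. Neither gene was thus among the strongest of replicate 2. Of the 4 unbound Sm genes, SmB had the highest rank in the pooled list, from which the IDR-thresholded peaks were taken. It ranked 7840 in replicate 1, 9868 in replicate 3 and 8985 in the pooled list (q = 0.000501), with no summit in replicate 2. SmD1 ranked 10730 in replicate 1 and 7343 in replicate 3, among the strongest of that library, and had no promoter summit in replicate 2 or the pooled list. SmE ranked 22177 and 12645 in replicates 1 and 3 and 14836 in the pooled list, and SmF appeared only in replicate 3, at rank 17289. The gene annotated as SNRPG, a name of the missing Sm protein G, is no member by the rule, and an IDR-thresholded summit lay 353 bp from a start site of it.

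The LSm proteins form related rings, of which the one with LSm2 to LSm8 binds U6 RNA and the one with LSm1 to LSm7 acts in the decay of mRNA in the cytoplasm. The symbol rule found 4 LSm genes, so these rings are represented only in part. LSm1 and LSm7 were bound and among the strongest of all 3 libraries, and LSm3 and LSm-4 were not bound. The LSm1 peak (chr2R:21170724-21171127) ranked 3646 in the IDR-thresholded list and 4400, 3212 and 3679 in replicates 1, 2 and 3, with its summit 254 bp upstream of the start site. The LSm7 peak (chr2L:16742945-16743348) ranked 5386, and 5728, 5209 and 4959 in the libraries, with its summit 47 bp upstream. Both genes kept a close rank from library to library. LSm3 ranked 12200 in the pooled list (q = 0.0269), 33 bp from its start site, with ranks of 10197 and 11296 in replicates 1 and 3 and no summit in replicate 2. LSm-4 had a summit in replicate 1 alone, at rank 18387.

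Of the U1 snRNP proteins, snRNP-U1-C, a zinc finger protein that stabilises the pairing of U1 RNA with the 5′ splice site, was bound, and snRNP-U1-70K, which binds U1 RNA itself, was not. The snRNP-U1-C peak (chr3R:18983629-18983886) ranked 2664, with ranks of 3709, 2527 and 1988 in replicates 1, 2 and 3 and a summit 183 bp upstream of the start site. At snRNP-U1-70K a background peak 196 bp from the start site ranked 22522 in the pooled list, 23468 in replicate 1 and 19140 in replicate 3, and replicate 2 had none.

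The proteins that read the branch point and the 3′ end of the intron held the most bound genes, 6 of 9. Of all protein-coding genes 26.4% were bound. All 6 had another coding start site within 500 bp, and 48.2% of protein-coding genes with such a neighbour were bound. Of the 9, 3 were bound and also among the strongest of all 3 libraries. Sf3b6, the small subunit that sits close to the branch point adenosine, had the strongest peak of all 32 genes (chr3L:6193147-6193520). It ranked 802 of 7717 with an authors' signal value of 615, and 1220, 659 and 615 in replicates 1, 2 and 3. Its summit lay 148 bp upstream of the start site. U2af50, the large subunit of U2AF, which binds the polypyrimidine tract, ranked 1967 (chrX:16359074-16359319), and 2355 and 1867 in replicates 1 and 3. Replicate 2 had no summit nearer than 8198 bp to a U2af50 start site. Such a gap was rare at this strength: of the 1248 bound protein-coding genes ranked at or above U2af50, 12 lacked a promoter summit in replicate 2. Sf3a2 (chr3L:12813953-12814107) ranked 3128, and 4735, 2571 and 2512 in the libraries, with its summit 26 bp upstream of the start site. Sf3b1, the largest SF3b subunit and the one that clamps the branch helix, ranked 4729, and 4474, 5485 and 4732 in the libraries.

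The other bound genes of this group stood near the end of the IDR-thresholded list. Sf3b2 ranked 7132, and 7709, 7841 and 7611 in replicates 1, 2 and 3. U2af38, the subunit of U2AF that contacts the AG at the 3′ splice site, ranked 7450, and 9277 and 7127 in replicates 1 and 3, with no summit in replicate 2. Sf3a1, Sf3b3 and Sf3b5 were not bound. Sf3a1 ranked 8185 in the pooled list, 28 bp from its start site and just below the IDR threshold (q = 0.000183), with library ranks of 6225, 7839 and 13878. Its peak was thus among the strongest in replicate 1 and far down in replicate 3. Sf3b3 had background peaks at ranks 24900, 27753 and 20526, and Sf3b5 had no promoter summit in any list.

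Of the 4 genes of the U4/U6 and U5 snRNPs, Prp31, which holds the U4/U6 and U5 particles together, was bound (chr3L:15158830-15159058). It ranked 1518 in the IDR-thresholded list, with an authors' signal value of 413, and 2095, 1173 and 1360 in replicates 1, 2 and 3. Prp6, a bridging protein of the same particle, was unbound by the rule, but its ranks of 7087 in replicate 2 and 7268 in replicate 3 put it among the strongest of those libraries. Its rank was 8627 in replicate 1 and 8018 in the pooled list (q = 0.000187), 343 bp from the start site. Prp3, a U4/U6 protein, ranked 10791 in the pooled list (q = 0.00663), with ranks of 8613 and 12270 in replicates 1 and 3. Prp8, the U5 protein at the catalytic centre, had no promoter summit in any list, and the nearest IDR-thresholded summit, 5711 bp away, was that of SmD3.

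The remaining Prp genes encode helicases and other factors named after pre-mRNA processing mutants of yeast. Prp19, a ubiquitin ligase of the complex that activates the spliceosome, and Prp39, a protein of the yeast U1 snRNP, were bound, both weakly. Prp19 ranked 7060 (chr2R:18450906-18451309), and 8407, 6433 and 6184 in replicates 1, 2 and 3. Prp39 ranked 7645 (chr3R:28811736-28812139), the weakest of the 14, and 6900, 7539 and 7785 in the libraries. The helicase genes Prp5, which acts as U2 joins the branch point, and Prp16, which acts before the second step of splicing, ranked 13244 and 13037 in the pooled list. Prp5 ranked 14912 and 8308 in replicates 1 and 3, and Prp16 14059 and 11069, and neither had a summit in replicate 2. At Prp16 an IDR-thresholded summit lay 638 bp from a start site, just outside the 500 bp window, while the most distant summit inside it was that of U2af38, at 424 bp. Prp18, which acts at the same step as Prp16, ranked 11641 in the pooled list (q = 0.0170), 23 bp from its start site, and 14622, 24165 and 9633 in the libraries. Prp38, needed in yeast for activation, and Prp40, a yeast U1 snRNP protein, had a summit in replicate 1 alone, at ranks 25903 and 18068. Prp40 ends beside Sf3b2, and the nearest IDR-thresholded summit, 6004 bp from its start site, was that of Sf3b2.

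Among bound genes alone, those of the spliceosome thus had weaker peaks by rank. The median rank of their promoter peaks was 5057.5, against 3049 for all 3681 bound protein-coding genes. Each gene took its strongest peak over all its start sites, and 12 of the 14 had 1 start site. The ranks were not matched for the number of start sites. None of the 14 lay in the strongest 10% of the list, which held 14.9% of bound protein-coding genes, and 5 (Prp19, Sf3b2, U2af38, SmD2 and Prp39) lay in the weakest 10%, from rank 6946 on, which held 6.85%. The ranks from 1 to 3858 held 6 of the 14, against 59.4% of bound protein-coding genes. In each library the order was the same: the median rank of bound members with a summit was 5138, 5209 and 4503 in replicates 1, 2 and 3, over 14, 11 and 14 genes, against 3140, 2963.5 and 2973 for bound protein-coding genes. These ranks are positions within lists of different length and are not a change between libraries.

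**Figure D3:**
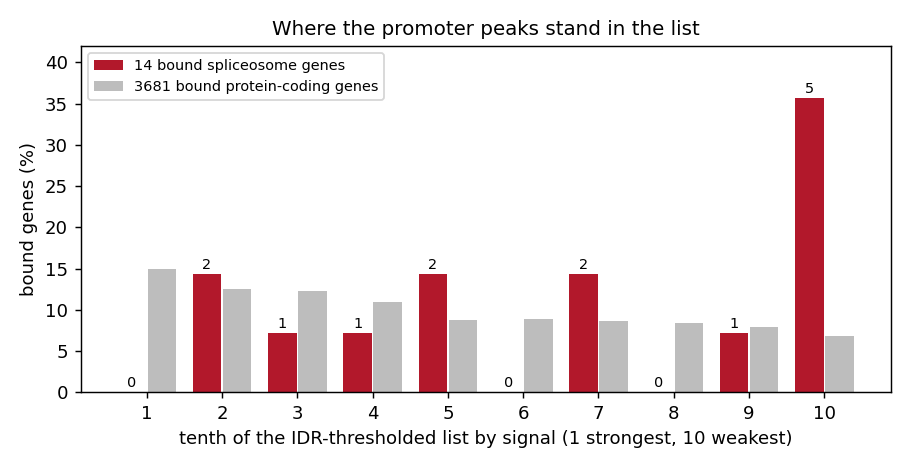
Percent of the 14 bound spliceosome genes (red, with counts) and of the 3681 bound protein-coding genes (grey) in each of 10 equal parts of the IDR-thresholded list, from the strongest peaks (1) to the weakest (10). The grey bars fall from 14.9% to 6.85%, while 5 of the 14 spliceosome genes stand in the last of these.

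Weak summits at the 18 unbound genes were common in the lists that hold background. In the pooled list 24 of the 32 genes (75%) had a promoter summit, against 48.5% of protein-coding genes. In the whole list of replicate 1 it was 29 genes (90.6% against 52.7%), in that of replicate 2 15 (46.9% against 41.9%) and in that of replicate 3 27 (84.4% against 49.3%). Among the 18 unbound genes alone, 10 had a pooled summit, against 30% of unbound protein-coding genes. With another coding start site within 500 bp it was 5 of 10, near the 43.9% of such unbound protein-coding genes. Without one it was 5 of 8, against 26.1%. A pooled summit with a q value of 0.05 or less lay at 6 of the 18 (33.3%, against 13.9%), and one within 50 bp of a start site also at 6 (33.3%, against 7.21%). Replicate 2 was the exception: 4 of the 18 had a summit there, against 23.1% of unbound protein-coding genes, while 15 had one in replicate 1 (36.1%) and 13 in replicate 3 (31.3%). Since these lists hold background on purpose, a summit in them is not a call of binding.

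Replicate 2 also lacked summits at bound genes. SmD2, U2af50 and U2af38 had none in its whole list, while all 14 bound genes had one in replicates 1 and 3. Over all bound protein-coding genes, 5.57% had none in replicate 2, 1.11% none in replicate 1 and 0.462% none in replicate 3. Replicate 2 held 8592 peaks with a q value of 0.05 or less, against 17347 and 10806 in replicates 1 and 3. The part of this difference in the missing summits was not tested, and read depth is unknown because the lists hold no counts.

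Most bound spliceosome promoters were divergent, that is, shared with a gene read the other way. The summit lay upstream of the start site in 14 of 14 cases, against 89% of bound protein-coding genes, at a median distance of 134.5 bp against 139 bp. In 13 of 14 cases (all but Prp39) a coding gene on the opposite strand had its start site within 500 bp of the same summit, against 55% of bound protein-coding genes, and in the same 13 the summit lay between both start sites, against 48.3%. Sf3b6 shared its peak with Tnpo, a nuclear import receptor gene, whose start site lay 301 bp away and as near to the summit (153 bp) as that of Sf3b6 (148 bp). Prp31 shared its peak with the mismatch repair gene Msh6, at 538 bp between start sites, and LSm1 with Xpd, a helicase gene of the transcription factor TFIIH, at 329 bp. Sf3b1 was paired with Nle at 219 bp, LSm7 with the spindle factor gene BuGZ at 305 bp, snRNP-U1-C with gukh at 375 bp, and SmD3 with Oda, which encodes ornithine decarboxylase antizyme, at 243 bp. Sf3a2 was paired with CG42588 (235 bp), Prp19 with rswl (243 bp), SmD2 with CG18048 (200 bp) and U2af50 with PIG-Q (235 bp). Of the 13 pairs, that of Sf3b2 and CG17219 had the shortest gap, 85 bp, and U2af38 lay 441 bp from Stip1.

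The start site of the spliceosome gene was the nearest to the summit in 9 of 14 bound genes (64.3%), against 71.1% of bound protein-coding genes. In the other 5 the partner's was nearer. At U2af38 the summit lay 17 bp from the start site of the co-chaperone gene Stip1 and 424 bp from its own. LSm1 stood at 254 bp against 75 bp for Xpd, U2af50 at 173 bp against 62 bp for PIG-Q, SmD2 at 121 bp against 79 bp for CG18048, and Sf3b2 at 62 bp against 23 bp for CG17219. Peaks alone do not say which gene of a pair the binding belongs to. For the 11 bound genes with a promoter summit in all 3 library lists, the largest gap between a library's summit and the IDR-thresholded one had a median of 35 bp and ranged from 21 to 448 bp. The widest gaps were those of SmD3 in replicate 2 (448 bp) and of Prp19 in replicate 3 (110 bp), and the other 9 genes had none above 50 bp.

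**Figure D4:**
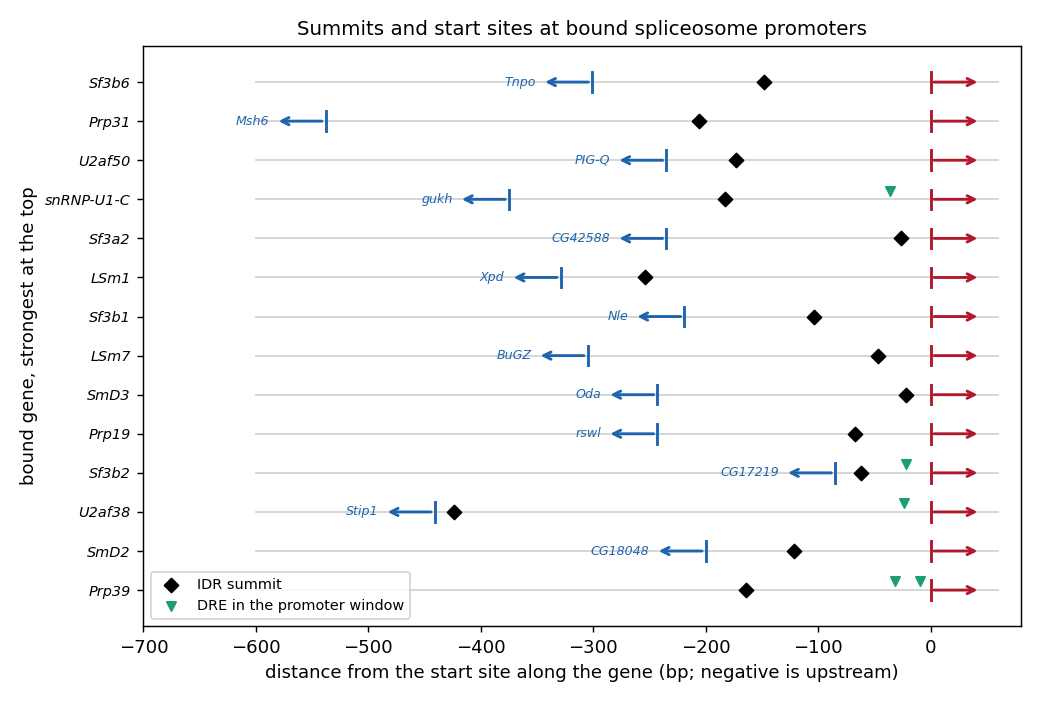
Positions of the IDR-thresholded summit (diamond), the start site of the spliceosome gene (red, at 0), that of the divergent partner (blue) and DRE matches (green triangles) for the 14 bound genes, in bp along the gene, strongest peak at the top. In 13 of 14 rows the summit stands between the red and the blue start site; Prp39 has no partner.

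A close coding neighbour was frequent among spliceosome genes, bound or not. Another protein-coding start site lay within 500 bp in 22 of the 32 (68.8%), against 30.9% of protein-coding genes. Genes with such a neighbour were bound more often throughout the genome, at 48.2%, and spliceosome genes with one were bound in 12 of 22 cases (54.5%), near that share. Without such a neighbour 2 of 10 were bound (20%, Prp31 and Prp39), against 16.7% of protein-coding genes. With other protein-coding genes weighted to the same share of close neighbours, a setting chosen after seeing the data, the difference in bound share was 5.45 percentage points in place of 17.4. The number of start sites showed the opposite: 27 of the 32 genes had 1 start site, against 73.5% of protein-coding genes, and genes with 1 start site were bound less often, in 20.6% of cases against 42.5% for genes with several. Of the 27, 12 were bound, and of the 5 with several, 2. Their median length was 1865 bp, against 2166 bp for protein-coding genes.

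Promoters were then searched for 8 motifs on both strands, from 250 bp before to 50 bp after the start site. Where a gene has several, the one nearest to the summit was used for bound genes and the farthest 5′ one for unbound genes. Motif shares of bound and unbound genes thus come from start sites chosen by different rules. The DRE, bound in Drosophila by DREF, was found in 8 of the 32 promoters (25%), against 9.23% of protein-coding promoters. It was found at bound and unbound members alike, in 4 of 14 bound genes (Prp39, Sf3b2, U2af38 and snRNP-U1-C), against 14.1% of bound protein-coding genes, and in 4 of 18 unbound genes (Prp6, Sf3b3, SmB and SmE), against 7.48%. Of the 8, 3 held 2 matches each (Prp39, Sf3b3 and SmB). Examples are shown with the DRE in capitals, as 60 bases 5′ to 3′ on the strand of the gene, chosen after their values were seen: Prp39 (chr3R:28812040-28812099, plus strand) and snRNP-U1-C (chr3R:18983657-18983716, minus strand), both bound, and SmB (chr2L:10426831-10426890, minus strand), where the matches overlap, and Prp6 (chr3L:18905337-18905396, plus strand), both unbound.
Prp39: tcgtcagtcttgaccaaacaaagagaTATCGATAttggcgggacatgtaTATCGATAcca
snRNP-U1-C: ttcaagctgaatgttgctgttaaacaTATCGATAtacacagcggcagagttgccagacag
SmB: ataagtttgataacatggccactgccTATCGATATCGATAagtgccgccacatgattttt
Prp6: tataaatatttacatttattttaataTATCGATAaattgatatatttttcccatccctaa
At the bound genes the DRE lay close to the start site and off the summit. Its centre lay 40 bp from the summit at Sf3b2, the only bound gene with a DRE within 50 bp of it (1 of 14, against 4.7% of bound protein-coding genes). The distance was 132 and 155 bp at Prp39, 147 bp at snRNP-U1-C and 400 bp at U2af38.

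The other housekeeping motifs did not all follow the DRE. The BEAF core was found in 23 of 32 promoters (71.9%, against 47%); every DRE match holds a BEAF core match, so these counts overlap. The Ohler 1 core (GGTCACAC), bound in Drosophila by M1BP, was found in 9 promoters (28.1%, against 7.49%), those of Sf3b6, Sf3b1, Sf3a2 and SmD2 among the bound genes and of Prp3, Prp18, SmE, SmF and snRNP-U1-70K among the unbound. No match lay within 50 bp of the summit of a bound member, where 1.93% of bound protein-coding genes had one. Ohler 6 was found in 3 promoters (LSm1, Sf3a2 and Sf3b5; 9.38%, against 2.14%) and Ohler 7 in 5 (15.6%, against 9.35%), of which only that of Sf3b1 was bound, although Ohler 7 was more frequent in bound than in unbound protein-coding promoters, at 19% against 5.9%. Within 500 bp on either side of the start site, the BEAF core was found at 27 of the 32 genes (against 78.6%) and Ohler 7 at 6 (against 17.3%), both close to all protein-coding genes. The TATA box letters TATAAA were found, on either strand and at any position of the window, in 17 promoters (53.1%, against 45.7%). Such a match does not show a working TATA box. The GAGA core (GAGAG) was found in 4 (12.5%, against 30.2%) and the E-box CACGTG in none (against 4.17%). A match describes these letters alone, and no binding of DREF, BEAF-32 or M1BP was measured.

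**Figure D5:**
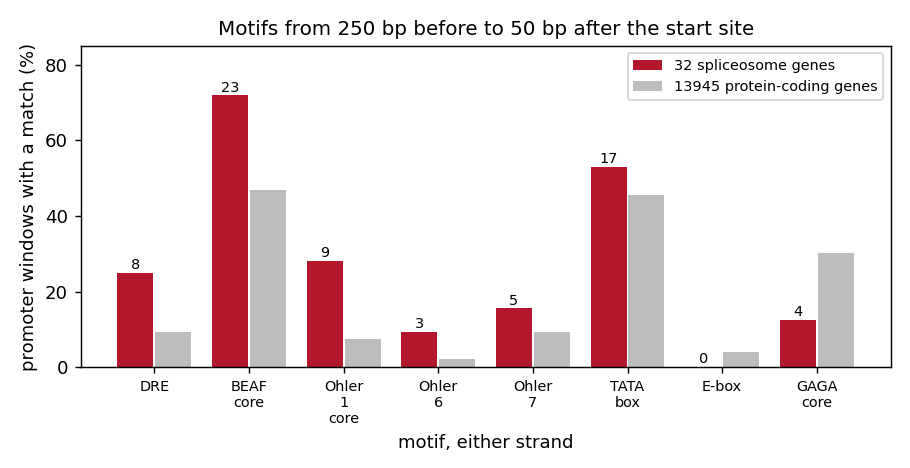
Percent of promoter windows, from 250 bp before to 50 bp after the start site, that hold a match to each of 8 motifs on either strand, in the 32 spliceosome genes (red, with counts) and in all 13945 protein-coding genes (grey). Red stands above grey for the DRE, the BEAF core, the Ohler motifs and the TATA box, and below for the E-box and the GAGA core.

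Other genes of the splicing pathway were counted by the same rule, those that code for protein beside the same 26.4%. These lists were not matched for close coding neighbours, and 48.2% of protein-coding genes with such a neighbour were bound. Of the protein-coding genes named from them, barc, BCAS2, SF2, fl(2)d and Acn had another gene's start site nearer to the summit. Of 28 other spliceosomal proteins, 17 (60.7%) were bound, with median rank 3959. They were led by barc at rank 513, BCAS2, a protein of the Prp19 complex, at 2160 and Phf5a, a further SF3b subunit, at 2312. The list named 38 genes, of which 10 could not be matched by symbol, and it includes Sap130, whose fly symbol belongs to a Sin3-associated protein; without it 16 of 27 (59.3%) were bound. SR proteins and their kinases, which help to define exons, were bound in 6 of 11 cases (54.5%), among them the kinase gene Doa at rank 1013 and SF2 at 1063. All 6 were among the strongest of all 3 libraries, as were 7 of the 14 bound genes chosen by symbol and 2864 of the 3681 bound protein-coding genes.

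Genes that regulate splicing or act after it were bound nearer to the share of the genes chosen by symbol. hnRNPs and splicing regulators were bound in 11 of 27 cases (40.7%), with the neuronal RNA-binding protein gene elav at rank 267, and vir at 1038 and fl(2)d at 1275, which both encode parts of the mRNA methylation complex that acts in Sxl splicing. Exon junction complex and associated genes were bound in 4 of 9 cases (44.4%), with Acn at rank 848, tsu (the Y14 protein) at 2317 and Upf3 at 5363. Genes of snRNP assembly and snRNA handling were bound in 6 of 15 cases (40%), led by the cap-binding gene Cbp20 at rank 1649, Smn, which loads the Sm ring onto snRNA, at 2085 and Ars2 at 2483. The 28 spliceosomal snRNA genes are non-coding, so the 26.4% of protein-coding genes is not their background. No share over non-coding genes was taken here. Of the 28, 6 (21.4%) were bound. The strongest were snRNA:U6:96Ab and snRNA:U6:96Ac, which share 1 peak at rank 1591, and snRNA:U5:35D at 3540. The summit lay 399 bp from snRNA:U6:96Ab and 484 bp from snRNA:U5:35D, and at both another gene's start site was nearer. The snRNA genes have near-identical copies, so reads among them are uncertain.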

How the data were processed

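The authors deposited peak lists in narrowPeak format. The signal value was deposited without a stated scale, so it served only for ranks within a list. The q value is deposited as −log10, and the summit as an offset in bp. Per the deposited listing, the library and pooled lists (30000, 28592 and 25547 peaks for replicates 1, 2 and 3, and 27240 pooled, on the 6 arms) hold background as input to the IDR step. The aligner and the peak caller, with their versions, were not given in the sources used here. The lists hold no read counts, so depth is unknown and no counting interval is given.

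Summits on dm6 were joined to Ensembl BDGP6.54 genes and the Release 6 genome, where 99.9% of 16229 annotated start codons read ATG. Each gene took its strongest peak within 500 bp of a start site. The join was tested on simulated data. Python 3.11.15, numpy 2.4.6 and pandas 2.3.3 were used. Labels do not say whether replicates are separate collections beyond calling them biological. Every member is named with its call; full values are given for the strongest bound genes of each role and for unbound genes with a library summit, and up to 3 bound genes are named from each further list, though 1 such gene is not reported here. The further lists, like the members, were chosen with earlier results of these data known. No test was made, since there is 1 group. Alternatives were other windows, peak sets, backgrounds and leaving out each replicate.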

Additional observations from a re-analysis of the deposited data

How the results depend on the processing

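The count of bound spliceosome genes, 14, was 12 with a 250 bp window, 15 with a 1000 bp window, 10 where the peak interval had to contain a start site, and 14 among genes with unique 31-base words. It fell to 6 with the 3858 strongest peaks, to 9 where the start site had to be the nearest of all genes to a summit, and to between 8 and 11 on leaving out 1 replicate; each of these settings admits fewer peaks or genes. The difference from other protein-coding genes, 17.4 percentage points, was 3.07 with the 3858 strongest peaks, 8.73 with the nearest start site and between 3.64 and 11.6 on leaving out 1 replicate. It was 5.45 with genes weighted by a close second coding start site, chosen after seeing the data, and between 15.1 and 21.5 in the other settings. The mean count among the strongest peaks of a library, 12.7, was 5 with the 3858 strongest, 18 with peaks of q 0.05 or less, 23.7 with the whole lists and between 11.5 and 14 on leaving out 1 replicate. The median rank, 5057.5, was 4503 in the list of replicate 3, where the cause was not tested. The DRE count, 8, was 1 within 50 bp of a summit, a window that only the 14 bound genes have.

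Depth is unknown, so an unbound gene and a gene bound below the detection limit cannot be told apart. No control data were analysed here, and the lists give no level that can be compared between libraries. Genes that share a peak with a neighbour cannot be told apart from it.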
